A study of Pinus pinaster with 6 samples.

Results

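The 125 transcripts described here are transcripts of moderate abundance that stood higher in every ammonium library than in any control library, by the widest ratio, in roots of maritime pine (Pinus pinaster) seedlings. They were chosen by their measured values. Transcripts averaging 10 to 400 CPM (counts scaled to library size) in the ammonium libraries, 17592 of the 46658 in the table, were ranked by the lowest ammonium value divided by the highest control value plus 1 CPM. The first 150 were taken, and 25 of them were excluded by name, which left 125. Roots came from 1-month-old seedlings grown in vermiculite, collected 24 h after irrigation with 80 mL of 3 mM NH4Cl (the ammonium group, libraries N1, N2 and N3) or with the same volume of plain water (the control group, libraries C1, C2 and C3). The seedlings of both groups had received only distilled water before that and 3 days of acclimation in seedbeds, and the study repeated the experiment 3 times independently. Native poly(A) RNA of whole roots was sequenced through nanopores, so that each read comes from 1 RNA molecule. How many seedlings went into a library is not given in the sources used here.

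Conifer roots take up ammonium readily and bind it into glutamine and glutamate through glutamine synthetase and glutamate synthase, before the nitrogen passes to other amino acids. The carbon and reducing power for this come from central metabolism, and roots supplied with ammonium are also known for shifts in redox, defense and cell wall genes. Several enzymes described below use glutathione or S-adenosylmethionine, which cells make from sulfur amino acids.

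The deposited CPM values correspond to 2947096 to 5416076 reads per ammonium library and 1270378 to 4801448 reads per control library, with C1 the shallowest. In a principal component analysis the first component (36.5% of the variance) set C1 apart and the second (22.3%) set N1 apart, so both are followed below. Aquaporin transcripts summed to 7610 to 7807 CPM in ammonium roots and 6728 to 8148 CPM in control roots, class III peroxidases to 3126 to 3440 CPM and 2836 to 3082 CPM, and 9 photosynthetic transcripts to 480 to 648 CPM and 581 to 773 CPM. Ammonium transporter 1.3, a root transporter, had 48.7, 38.0 and 46.7 CPM in ammonium roots and 23.8, 29.9 and 43.7 CPM in control roots. Fewer cells of a type and less RNA per cell cannot be told apart in whole roots.

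Across the 125 transcripts, the mean of the ammonium libraries was 1.22 to 2.58 times that of the control libraries, with a median of 1.55. Only 7 transcripts reached 2 times the control mean, and 79 reached 1.5 times. On the log2(CPM + 1) scale, where low transcripts appear to change less than they do, the log2 fold changes ran from 0.29 to 1.20 with a median of 0.60, beside a median of 0.00 over all 46658 transcripts. The set thus holds modest, even differences rather than large ones. Mean levels were 10.03 to 208 CPM (median 22.1) in ammonium roots and 5.39 to 149 CPM (median 14.2) in control roots. Summed, the members made up 4540, 4624 and 4417 CPM in N1, N2 and N3, against 2854, 3129 and 3084 CPM in C1, C2 and C3.

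A ranking ratio above 1 means that every ammonium library lay above every control library. All 125 members met this by their choice, as did 9.3% of transcripts in the abundance range and 7.16% of the whole table. None of the 125 passed limma at an adjusted p of 0.05, with a smallest adjusted p of 0.0522, and limma called 0.00857% of all transcripts as higher under ammonium. At an unadjusted p under 0.05 limma listed all 125, while it listed 4.1% of all transcripts as higher under ammonium. On the reads recovered from the CPM values, edgeR's exact test called 43 members as higher, where it called 0.242% of all transcripts higher. Its quasi-likelihood test called 12 (0.0622% of all transcripts), and DESeq2 called 11 of the 99 members it gave an adjusted p (0.208% of all such transcripts). Limma without N1 and C1 called 16 (0.231%). Because the members were chosen on this very contrast, nothing is read from these counts, and no test is given for any member below. With 3 libraries a group, these p-values measure only the spread between libraries.

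Nothing in the ranking marks a natural end of the set. The first member had a ratio of 1.59 (rank 4) and the last 1.1603, and the next transcript after it, an alanine aminotransferase, had 1.1600. Just inside the threshold were an undescribed transcript (14.3, 14.3 and 14.3 CPM in N1, N2 and N3, against 10.7, 8.59 and 11.3 CPM in C1, C2 and C3), a pair of undescribed forms with identical reads at ranks 147 and 148, an alpha-L-arabinofuranosidase at rank 149 and a protein of unknown function at rank 150. Just outside were, after the aminotransferase, an undescribed transcript at rank 152 (13.96, 15.6 and 18.4 CPM in ammonium roots, 8.44, 11.05 and 9.72 CPM in control roots), peroxidase 57 at rank 153, a small ubiquitin-related modifier at rank 154 and a selenium-binding protein after it. The ratio stayed above 1 for 994 transcripts, so many others also had groups that did not overlap.

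**Figure D1:**
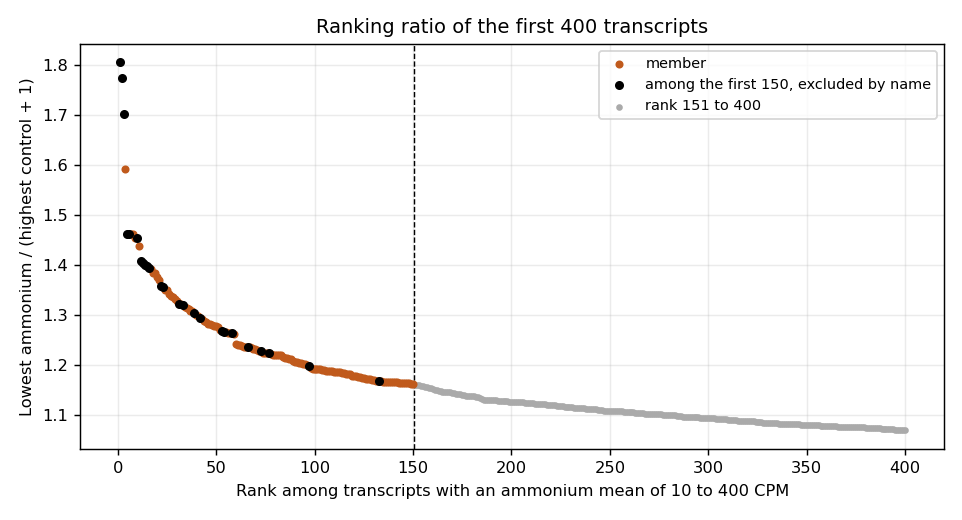
The ranking ratio (lowest ammonium value over highest control value plus 1 CPM, vertical axis) is plotted against rank for the first 400 transcripts, with members in orange, the 25 transcripts excluded by name in black and later ranks in grey. The ratio falls without a step through rank 150, at the dashed line, from 1.59 at the first member to 1.1603 at the last.

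The same measure could be read in libraries that the ranking had not seen. The exclusion by name was kept here, and it covers ranks 1, 2 and 3 of the ranking on all libraries. When the rule was applied to N1, N2, C1 and C2 alone, it chose 127 transcripts, whose median log2 difference was 0.76 in those libraries and 0.25 between N3 and C3, where 73.2% were higher in N3. Chosen without N2 and C2, 133 transcripts had a median of 0.76 in the libraries used and 0.24 between N2 and C2, where 74.4% were higher in N2. Chosen without N1 and C1, 129 transcripts had a median of 0.79 in the libraries used and 0.04 between N1 and C1, where 54.3% were higher in N1. Over all transcripts in the range the medians were 0.01, 0.01 and 0.00 and the shares 51.2%, 51.8% and 50.3% for the same pairs of libraries. So the differences were carried into the third pair of libraries at less than their size in the other pairs in each case, and hardly at all into N1 and C1. The libraries of a pair share a number, and whether they also share a repeat of the experiment is not given. These values describe the libraries with no test.

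**Figure D2:**
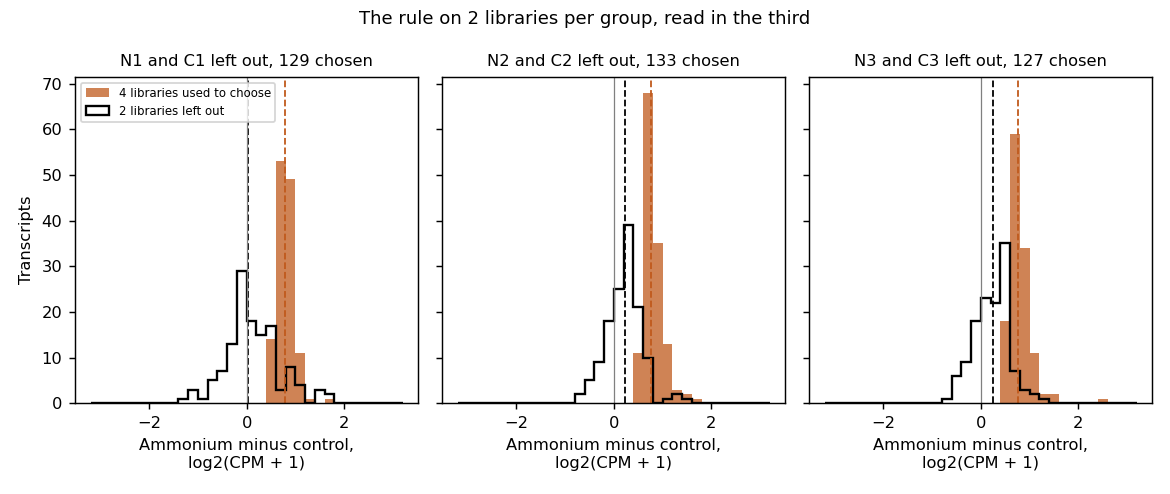
Each panel shows the log2 difference, ammonium minus control on the log2(CPM + 1) scale, of transcripts chosen by the rule from 2 libraries per group, in the 4 libraries used (orange) and in the 2 left out (black outline), with medians as dashed lines. The left-out medians are 0.04, 0.24 and 0.25 with N1 and C1, N2 and C2, or N3 and C3 left out, against 0.79, 0.76 and 0.76 in the libraries used.

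Membership shifted accordingly. With single libraries left out of the rule, 34 members (without N1), 76 (without N2) and 81 (without N3) were chosen again, as were 83 without C1, 53 without C2 and 59 without C3. Without N1 and C1 together, 24 were chosen again, and the median log2 fold change of the 125 members over the other 4 libraries was 0.53. A core of 23 members from 18 unigenes was kept whichever of the 6 libraries was left out. These runs reuse libraries that chose the members, so the core, within ranks 4 to 48, largely reflects high rank. It holds both tau class and 3 lambda class glutathione S-transferase forms, all 3 forms of phosphoethanolamine N-methyltransferase, a pair of aldo-keto reductases, 4-coumarate-CoA ligase, anthocyanidin reductase, a xyloglucan endotransglucosylase/hydrolase, an NADH-dependent glutamate synthase form, an FQR1-like quinone reductase, a glycine-rich protein, a glycolipid transfer protein, chaperonin 20, plasma membrane-associated cation-binding protein 1 and 4 undescribed forms.

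The members are transcript forms and not separate genes. By the study's annotation, 120 of them belong to 79 unigenes, of which 52 have 1 member and 11 have at least 3 (36 members in all). Some of these forms had nearly equal reads, and 12 members had reads identical to another member's in all 6 libraries, which left 119 distinct profiles. Names below are the descriptions in the annotation tables, which are best database matches, and 27 members carry no informative one. C1 was the lowest control library for 67 members, and in C1 a member had a median of 19 reads (4 at the lowest, under 10 for 19 members), beside a median of 118 reads in N3.

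Enzymes of detoxification and redox balance formed the group that reached the highest ratio of group means, 15 forms from 10 unigenes with ratios of 1.31 to 2.58. Glutathione S-transferases, which join glutathione to reactive compounds, made up 6 of them. The first member, the tau class form pp_235801 at rank 4, had 17.2, 25.2 and 20.9 CPM in N1, N2 and N3, against 9.21, 9.82 and 9.05 CPM in C1, C2 and C3 (2.25 times the control mean). The second tau class form, pp_235810, had 15.3, 22.4 and 21.04 CPM in ammonium roots and 9.97, 8.80 and 10.8 CPM in control roots. In both forms N2 was the highest and N1 the lowest ammonium library, and the control libraries lay close together. Lambda class enzymes, a class known in plants for a deglutathionylating activity, were more abundant. The form pp_105382 had 124, 128 and 114 CPM in ammonium roots and 69.8, 81.4 and 81.3 CPM in control roots, and the forms pp_105375 and pp_105385 gave nearly the same values, 111.8 to 129 CPM and 66.7 to 84.3 CPM. Another lambda form at a lower level, pp_105380, had 20.8, 23.7 and 17.5 CPM in ammonium roots and 7.67, 13.9 and 13.3 CPM in control roots, and its C1 value stood below those of C2 and C3.

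Aldo-keto reductases, which reduce aldehydes and ketones with NADPH, included the member with the highest ratio. The form pp_245273 had 10.7, 20.7 and 14.4 CPM in N1, N2 and N3, against 4.60, 6.75 and 6.40 CPM in C1, C2 and C3, or 2.58 times the control mean, and its related form pp_245269 had 13.96, 24.1 and 15.9 CPM and 8.44, 9.21 and 8.17 CPM. N2 was the highest and N1 the lowest ammonium library in both, and their ammonium libraries spread more widely than their control libraries. The 3 forms of another aldo-keto reductase unigene were more abundant and differed less, with 92.9 to 106.2 CPM in ammonium roots and 69.0 to 80.6 CPM in control roots. The quinone reductases of the FQR1/WrbA kind, which reduce quinones by 2 electrons, had 62.99, 64.8 and 66.5 CPM in ammonium roots and 42.96, 47.5 and 43.9 CPM in control roots (pp_152009), and 59.1 to 63.3 CPM and 40.7 to 47.5 CPM in a second form. A glyoxalase I family protein (pp_72682), of the family that removes methylglyoxal, had 23.4, 21.8 and 21.04 CPM and 14.6, 12.1 and 15.02 CPM. Monodehydroascorbate reductase (pp_109010), which regenerates ascorbate, had 85.7, 65.04 and 56.9 CPM in ammonium roots, with N1 well above N3, and 42.96, 46.8 and 45.9 CPM in control roots.

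**Figure D3:**
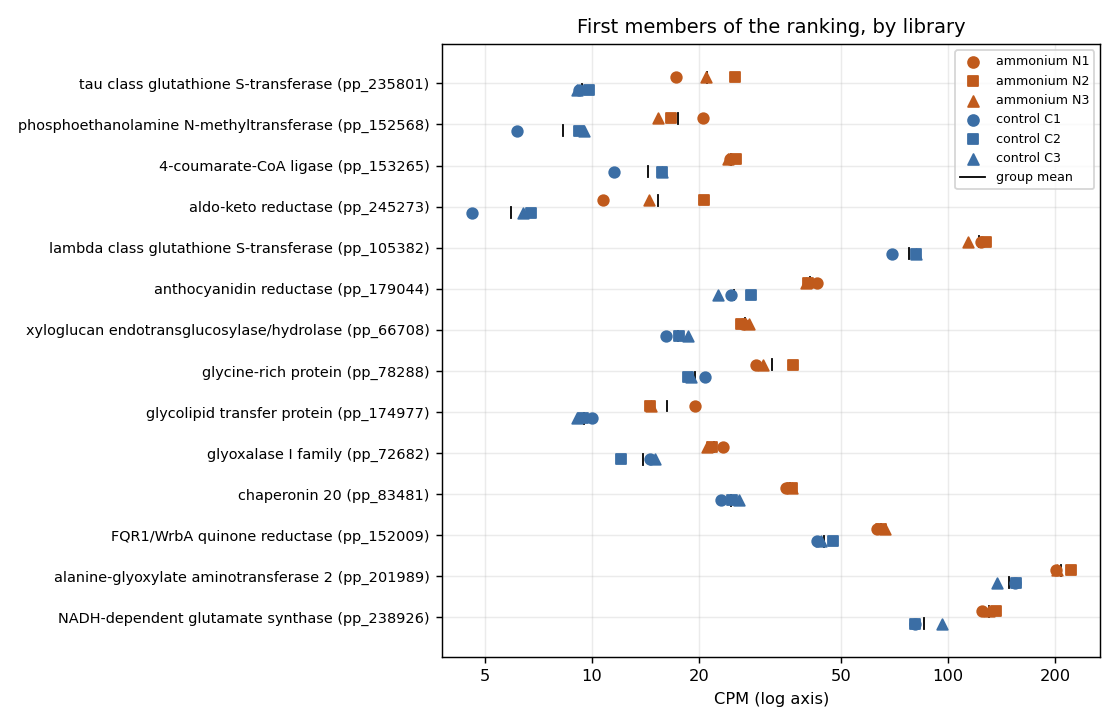
CPM on a log axis in each library for 14 members, the first of each described family within the role groups among the first 30 members. Ammonium libraries are in orange above control libraries in blue, with short black lines at the group means. The cyclase family protein pp_154472 and the PMT26-like methyltransferase pp_66465, which lie outside the role groups, are not shown. By the choice of members no ammonium point lies left of a control point, and the gap is widest for the tau class glutathione S-transferase, with 17.2 to 25.2 CPM in ammonium roots and 9.05 to 9.82 CPM in control roots.

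Phosphocholine, the head group of the membrane lipid phosphatidylcholine, is made in plants by successive methylation of phosphoethanolamine, or from choline by choline kinase, and forms of both enzymes were among the members. Phosphoethanolamine N-methyltransferase, which uses S-adenosylmethionine as methyl donor, had 20.5, 16.6 and 15.3 CPM in N1, N2 and N3, against 6.14, 9.21 and 9.50 CPM in C1, C2 and C3 (pp_152568). The form pp_152570 had the same reads in every library, and pp_152569 had 20.1, 16.2 and 14.6 CPM and 5.37, 9.001 and 9.05 CPM. Their ratios, 2.11 to 2.18, are among the 7 of at least 2, and N1 was the highest ammonium library and C1 the lowest control library in all 3. C1 held only 7 or 8 reads of them. Choline kinase 2 (pp_128668) had 15.6, 19.2 and 18.7 CPM in ammonium roots and 11.5, 11.7 and 9.28 CPM in control roots, and a lower form of the same unigene (pp_128670) had 8.77, 12.2 and 10.2 CPM and 6.14, 5.93 and 5.52 CPM. Here N2 was the highest and N1 the lowest ammonium library. Summed over the 5 forms, the group stood at 1.81 to 2.08 times the control mean in the ammonium libraries and 0.860 to 1.10 times in the control libraries, the widest separation of any group here.

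Enzymes that make phenolics or surface lipids gave 6 members from 3 unigenes. 4-coumarate-CoA ligase (pp_153265), which activates hydroxycinnamic acids for lignin and flavonoids, had 24.4, 25.4 and 24.1 CPM in ammonium roots, nearly the same in each library, and 11.5, 15.8 and 15.7 CPM in control roots, with C1 lowest. Anthocyanidin reductase (pp_179044), the enzyme that makes the flavan-3-ol units of condensed tannins, had 42.9, 40.3 and 39.9 CPM in ammonium roots and 24.6, 28.03 and 22.5 CPM in control roots. The remaining 4 were forms of 1 CYP86A cytochrome P450, a fatty acid omega-hydroxylase of cutin and suberin synthesis in Arabidopsis. They spanned 15.1 to 20.1 CPM in ammonium roots and 9.97 to 14.4 CPM in control roots, and N3 was highest in 3 of them. In all 4, C1 was the lowest and C3 the highest control library.

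Cell wall and surface proteins made up 19 forms from 12 unigenes, with ratios of 1.29 to 1.91. Of these, 8 were xyloglucan endotransglucosylase/hydrolases, which cut and rejoin the xyloglucan chains that tether cellulose. The 4 forms that match Arabidopsis XTH8 had 26.2 to 28.9 CPM in ammonium roots and 16.1 to 19.9 CPM in control roots, and pp_66708 had 26.6, 26.2 and 27.6 CPM and 16.1, 17.6 and 18.6 CPM. The other 4 forms, from 4 further unigenes, had more in N1 than in N2 and N3. For example, pp_68519 had 34.4, 26.02 and 28.5 CPM in ammonium roots and 15.3, 20.5 and 17.9 CPM in control roots, and pp_68517 had 43.2, 31.8 and 36.01 CPM and 23.02, 23.5 and 24.7 CPM. Within the family, then, the ammonium libraries were even in the XTH8-like forms and led by N1 in the rest.

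A glycine-rich protein (pp_78288), of a class of structural wall proteins, had 28.9, 36.7 and 30.3 CPM in ammonium roots and 20.7, 18.6 and 18.99 CPM in control roots. The 3 forms that match EXORDIUM like 2, of a family linked to brassinosteroid-promoted growth in Arabidopsis, had 36.0 to 39.5 CPM in ammonium roots and 25.6 to 29.9 CPM in control roots. A GPI-anchored lipid transfer protein (pp_21615) had 17.2, 12.8 and 12.7 CPM and 5.37, 9.001 and 7.95 CPM, the highest ratio of the group. An insoluble beta-fructofuranosidase, a cell wall invertase that splits sucrose, gave 2 forms with 11.7 to 15.3 CPM in ammonium roots and 7.67 to 9.50 CPM in control roots. A putative auxin induced cell wall protein gave 2 forms with 54.6 to 59.0 CPM and 35.3 to 46.2 CPM. A hexosyltransferase and an alpha-L-arabinofuranosidase, which removes arabinose from wall polymers, completed the group.

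Genes of nitrogen and sulfur assimilation gave 7 members from 5 unigenes, with ratios of 1.40 to 1.56. NADH-dependent glutamate synthase, which with glutamine synthetase brings ammonium into glutamate, was present as 3 forms. The form pp_238926 had 125, 136 and 130.3 CPM in N1, N2 and N3, against 80.6, 80.6 and 96.3 CPM in C1, C2 and C3, pp_238919 had 116, 129 and 125 CPM and 74.4, 76.1 and 92.5 CPM, and pp_238924 had 88.97, 102 and 96.98 CPM and 62.1, 59.9 and 68.7 CPM. In each of the 3, N2 was the highest ammonium and C3 the highest control library. The mitochondrial alanine-glyoxylate aminotransferase 2 homolog (pp_201989), which moves an amino group from alanine to glyoxylate, was the member with the highest mean CPM, with 201, 221 and 202 CPM in ammonium roots and 154, 154.9 and 137 CPM in control roots. A peptide transporter 2 match (pp_203500) had 21.8, 21.8 and 18.7 CPM and 14.6, 14.5 and 10.8 CPM. Serine acetyltransferase, which makes the acetylserine that takes up sulfide to form cysteine, gave 2 forms with 11.9 to 13.0 CPM in ammonium roots and 8.18 to 9.21 CPM in control roots.

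Signalling, membrane and defense proteins made up 19 forms from 12 unigenes, with ratios of 1.38 to 1.92. N1 was the highest ammonium library for 12 of them. Plasma membrane-associated cation-binding protein 1 (pp_118432), which binds calcium and phosphoinositides in Arabidopsis, had 20.1, 23.7 and 24.6 CPM in ammonium roots, with N1 lowest, and 10.7, 14.7 and 12.6 CPM in control roots. EF-hand calcium-binding proteins gave 3 forms with 17.5 to 20.9 CPM and 9.97 to 14.8 CPM, in which N3 was always the highest ammonium library. SAL1 phosphatase, which in Arabidopsis removes phosphate from a by-product of sulfation, gave 3 forms with 12.6 to 14.6 CPM and 6.14 to 9.50 CPM. A protein phosphatase 2C of a family that includes regulators of abscisic acid signalling gave 2 forms with 9.98 to 14.9 CPM and 6.85 to 7.57 CPM. In the last of these N1 was the highest ammonium library, so the calcium-binding and phosphatase forms did not share an order of libraries.

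Glycolipid transfer protein, which moves glycolipids between membranes, gave 3 forms, of which pp_174977 had 19.5, 14.5 and 14.6 CPM in ammonium roots and 9.97, 9.41 and 9.05 CPM in control roots. N1 was well above N2 and N3 in these forms. The aquaporin TIP2-4 (pp_198180), a channel of the vacuolar membrane of a type that in other plants also passes ammonia, had 11.7, 13.6 and 12.3 CPM and 5.37, 9.001 and 5.74 CPM, with C2 above C1 and C3. The class IV chitinase pp_239601, which cleaves chitin, had 15.3, 10.02 and 10.7 CPM and 6.14, 5.73 and 6.85 CPM, with N1 above N2 and N3. The 2 AWPM-19-like forms, membrane proteins of a family linked to abscisic acid and cold, had 30.5 to 44.5 CPM and 18.3 to 34.0 CPM, and those of the HR-like lesion-inducing protein had 35.3 to 49.4 CPM and 23.8 to 32.5 CPM. A WAT1-related transporter (pp_203861) had 37.02, 37.5 and 36.01 CPM in ammonium roots and 28.4, 28.4 and 23.4 CPM in control roots.

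Protein synthesis and folding gave 7 members, each from its own unigene. Ribosomal proteins accounted for 4 of them. An S3 family protein (pp_125062) had 67.5, 78.7 and 68.8 CPM in ammonium roots and 40.7, 51.96 and 53.4 CPM in control roots, 60S L21-1 (pp_209639) had 61.4, 56.9 and 50.99 CPM and 31.5, 38.7 and 41.1 CPM, and 40S S23-2-like (pp_236320) had 75.3, 70.4 and 55.8 CPM and 35.3, 46.03 and 44.2 CPM. In L21-1 and S23-2-like, N1 was the highest ammonium library and C1 the lowest control library. A transcript matching L23AA (pp_119443) had 9.74, 14.9 and 9.81 CPM in ammonium roots and 3.07, 7.36 and 5.74 CPM in control roots, its C1 value resting on 4 reads. Chaperonin 20 (pp_83481), a co-chaperonin of the chloroplast in Arabidopsis, had 35.1, 36.5 and 36.4 CPM and 23.02, 24.8 and 25.8 CPM. The beta subunit of the nascent polypeptide-associated complex, which meets new chains at the ribosome, had 49.0 to 52.0 CPM and 32.2 to 38.7 CPM.

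Protein processing and traffic gave 8 members from 5 unigenes, and N2 was the highest ammonium library in all 8, though in some only by less than 1 read is worth. N1 and N2 had 14.29 and 14.29 CPM in a membrane-associated mannitol-induced match (pp_243246), and 19.16 and 19.19 CPM in a Sec16-like form (pp_58190). The low-temperature-induced cysteine proteinase pp_61967 had 34.1, 51.8 and 48.5 CPM in ammonium roots and 25.3, 28.03 and 23.9 CPM in control roots, and its partner form pp_61970 nearly the same. N1 lay closer to the control libraries than to N2 and N3 in both. Signal peptide peptidase (pp_249210), which cuts peptides within membranes, had 19.2, 24.7 and 18.4 CPM and 13.8, 11.3 and 11.5 CPM. Sec16-like proteins of vesicle budding at the endoplasmic reticulum gave 2 forms with 16.2 to 19.2 CPM and 11.3 to 12.9 CPM. An autophagy 18G match gave 2 forms with 19.3 to 19.8 CPM and 13.3 to 15.3 CPM.

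Carbon and energy metabolism gave 6 members from 4 unigenes, with ratios of 1.29 to 1.49 and a median of 1.38, the lowest median of any group here. Fructose-bisphosphate aldolase of glycolysis had 78.6 to 106.0 CPM in ammonium roots and 60.6 to 73.8 CPM in control roots over 2 forms, with N2 highest. NADP-malic enzyme (2 forms with identical reads), which makes pyruvate and NADPH from malate, had 14.3, 12.6 and 12.5 CPM and 9.21, 8.39 and 8.83 CPM. A soluble inorganic pyrophosphatase (pp_117278) had 26.3, 27.1 and 27.6 CPM and 20.7, 20.3 and 18.1 CPM, and a subunit of mitochondrial complex I (pp_100309) had 119, 114 and 117 CPM and 80.6, 95.1 and 95.4 CPM. Of the 6 members outside these groups, a cyclase family protein (pp_154472) had 11.04, 11.3 and 10.7 CPM in ammonium roots and 4.60, 7.16 and 6.63 CPM in control roots, and a PMT26-like methyltransferase (pp_66465) had 20.5, 20.5 and 19.6 CPM and 13.8, 14.3 and 10.8 CPM.

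The 27 members without an informative description came from 13 unigenes, apart from 5 found in no annotation table, with ratios of 1.22 to 1.97. Among the first 30 members, pp_150749 had 14.9, 14.9 and 13.4 CPM in ammonium roots and 6.90, 6.75 and 8.61 CPM in control roots, pp_159419 had 14.9, 14.7 and 16.6 CPM and 7.67, 10.02 and 5.74 CPM, and pp_72422 had 10.4, 9.17 and 10.5 CPM and 6.14, 6.14 and 5.96 CPM. The forms pp_209972 and pp_209973 of another unigene differed by 1 read in N3 only and had 45.1 to 48.4 CPM and 30.7 to 32.5 CPM. Unigenes with several such members gave 23.1 to 31.6 CPM in ammonium roots and 14.6 to 18.6 CPM in control roots over 3 forms, and 12.6 to 16.8 CPM and 7.95 to 10.6 CPM over 4 forms. Their own descriptions attach no function to these members. The unigene of pp_92117, pp_92120 and pp_92121 also holds pp_92119, excluded here by name, which the paper lists as a defensin transcript. The undescribed pp_243248 had the same reads as pp_243246, a membrane-associated mannitol-induced match, in every library but C2.

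Summed by role, the members showed which ammonium libraries carried each group. N1 led in phosphocholine synthesis, the cell wall group, the signalling group and the members outside the groups, N2 led in detoxification, protein synthesis, protein processing, assimilation, the undescribed members and carbon metabolism, and N3 led only in phenolics, cutin and suberin. That last lead was slight, with 139.1 CPM in N3 and 138.0 CPM in N1. By single members, N1 was highest in 11 and N2 in 9 undescribed members, and N1 in 3 and N2 in 2 carbon members. Over single members the highest ammonium library was N1 for 53 (42.4%, beside 38.5% of transcripts in the range), N2 for 49 (39.2% beside 31.9%) and N3 for 23 (18.4% beside 29.5%). The highest control library was C1 for 23 (18.4% beside 34.7%), C2 for 53 and C3 for 49. Spread within groups was narrower in members than in the abundance range, with a median coefficient of variation of 7.43% in ammonium roots (11.0% in the range) and 9.63% in control roots (12.9%), as the ranking by extremes favours.

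**Figure D4:**
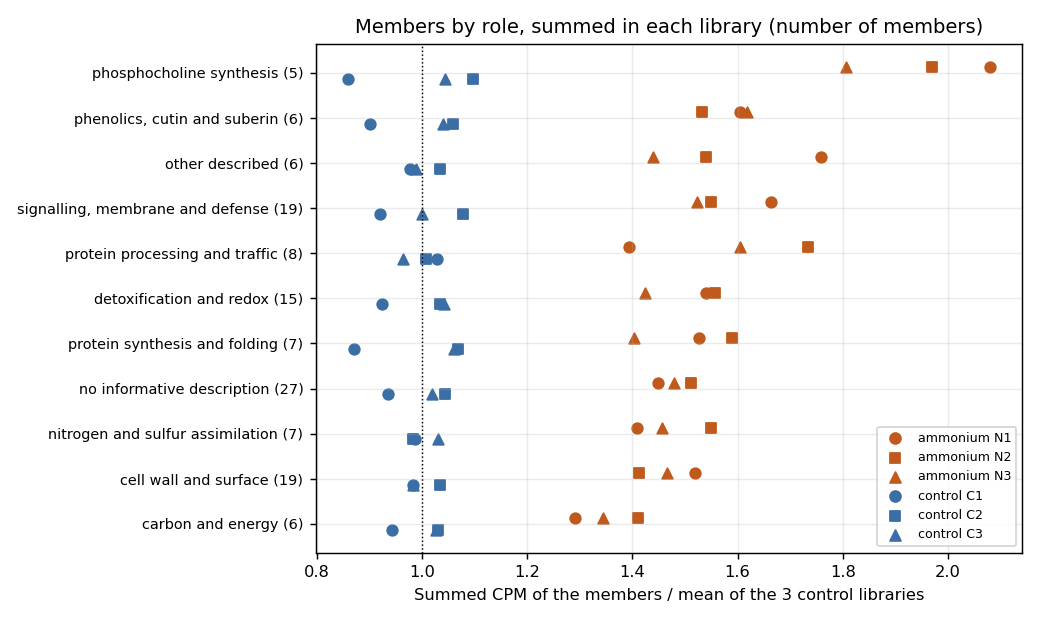
Summed CPM of the members of each role group in each library, divided by the mean of the 3 control libraries, with ammonium libraries in orange and control libraries in blue, and the number of members in brackets. Phosphocholine synthesis stands at 1.81 to 2.08 in ammonium libraries, while carbon and energy stands at 1.29 to 1.41.

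Among the 3728 annotated transcripts, the unigenes of the members held 53 further forms, in 32 of the 79 unigenes, which the rule had not taken or had excluded by name. Forms of 1 unigene may share reads, so these forms are no separate evidence. Of the annotated transcripts, 1863 were named only in a shortened table that the study had sorted by its own p for this contrast. Forms with little difference may therefore be missing, and the counts below start from a selected set. Of the 53, 48 had a log2 fold change above 0, and in 43 every ammonium library lay above every control library, as in 7.16% of all transcripts and 9.3% of those in the abundance range. Without the 12 excluded by name, 36 of 41 were above 0, with a median of 0.48, and 31 had ammonium libraries all above the control libraries. Limma called none of the 41, and edgeR's exact test called 2, both higher, where limma called 0.00857% and the exact test 0.242% of all transcripts higher. At an unadjusted p under 0.05 limma listed 33 of the 41 as higher and 2 as lower, beside 4.1% of all transcripts as higher. In some unigenes all forms had like values. The further form of EXORDIUM like 2 had a log2 fold change of 0.41, beside 0.41 to 0.44 in its 3 members, and those of the protein phosphatase 2C had 0.67 to 0.69, beside 0.67 to 0.70.

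In a few unigenes the forms parted. The L23AA member pp_119443 had a log2 fold change of 1.00, whereas its more abundant forms pp_119444 and pp_119445 had -0.02 and -0.01. The form pp_119444 had 84.7, 78.7 and 81.7 CPM in ammonium roots and 69.05, 86.1 and 94.5 CPM in control roots. For monodehydroascorbate reductase, the further form pp_179525 had 120.5, 92.5 and 98.4 CPM in ammonium roots and 104, 99.6 and 109 CPM in control roots, a log2 fold change of -0.01 beside 0.58 in the member. The unigene of the defensin transcript pp_92119 holds 3 undescribed members at 0.50 to 0.60. Its form pp_92114 was at -0.50, with 28.2, 32.8 and 37.8 CPM in ammonium roots and 34.5, 54.6 and 53.7 CPM in control roots. The low form pp_66467 of the PMT26-like methyltransferase had 2.60, 0.853 and 1.96 CPM in ammonium roots and 5.37, 4.09 and 3.98 CPM in control roots, a log2 fold change of -1.01, the lowest of the 53. These contrasts between forms were not tested.

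**Figure D5:**
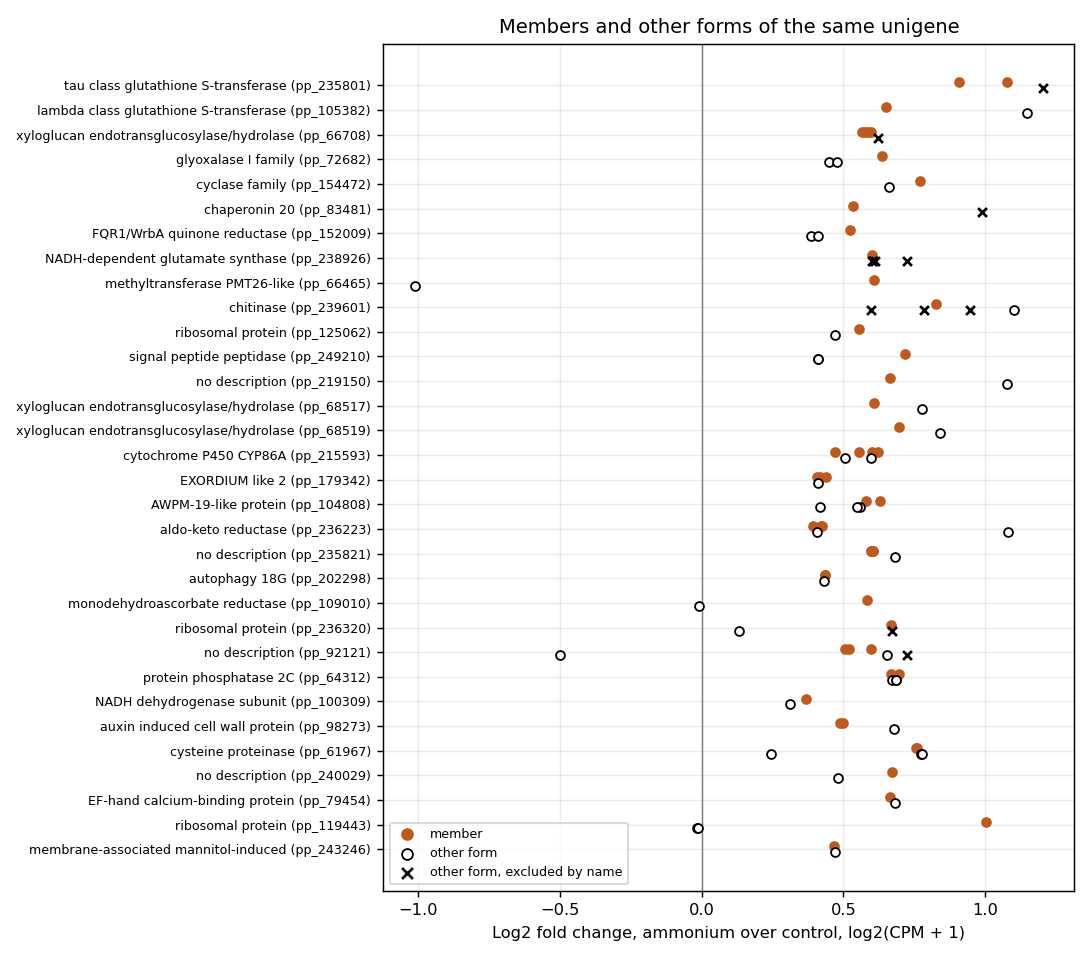
Log2 fold change (ammonium over control, log2(CPM + 1) scale) of members in orange and of other forms of the same unigene as open circles, or as crosses where excluded by name, for the 32 unigenes with such forms. Of the 41 open circles 36 lie above 0, up to 1.15, and 5 lie below 0, including a form of the PMT26-like methyltransferase at -1.01.

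Transcripts of the same families outside the members were counted from the fit across all transcripts, in 20 lists of 765 transcripts from 475 unigenes. Limma called 4 of these higher and none lower (0.00857% and 0.03% of all transcripts), and all 4 had been excluded from the members by name. By limma they were an NADH-dependent glutamate synthase form (log2 fold change 0.72, adjusted p = 0.0458), an antimicrobial peptide (0.99, adjusted p = 0.00788), a PR-1 pathogenesis-related protein (1.295, adjusted p = 0.0159) and a tau class glutathione S-transferase (1.20, adjusted p = 0.0288). At an unadjusted p under 0.05 limma listed 262 of the 765 as higher and 81 as lower, beside 4.1% of all transcripts as higher. By edgeR's exact test 42 were higher and 16 lower (0.242% and 0.568% of all transcripts). In all, 1863 of the 3728 annotated transcripts were named only in a shortened table that the study had sorted by its own p. These shares thus start from a selected set, in which transcripts with little difference are mostly missing. All 12 aldo-keto reductases named only there had an unadjusted limma p under 0.05. Of 21 such cytochrome P450s, limma listed 5 as higher and 16 as lower at that threshold. The counts at an unadjusted p follow largely from this selection, and nothing is read from them.

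Of 25 further glutathione S-transferases, all 25 had a log2 fold change above 0, with a median of 0.14 in the 13 named in other tables and 0.67 in the 12 named only in the sorted table. A lambda class form excluded by name had 129, 129.9 and 116 CPM in ammonium roots and 69.8, 84.5 and 81.5 CPM in control roots, and another, pp_105381, had 10.1, 14.1 and 12.3 CPM in ammonium roots and 2.30, 5.93 and 7.95 CPM in control roots. Of 34 further aldo-keto reductases, 30 were above 0 (median 0.17 in the 22 named elsewhere), and none passed limma or the exact test. At an unadjusted p under 0.05 limma listed 19 as higher and 0 as lower, beside 4.1% of all transcripts as higher. Of these 19, 12 were named only in the sorted table and 7 were among the 22 named elsewhere. The form pp_35811 had 6.17, 4.26 and 5.35 CPM in ammonium roots and 1.53, 2.86 and 1.33 CPM in control roots, and pp_227066 had 10.4, 14.7 and 10.7 CPM in ammonium roots and 8.44, 7.36 and 4.42 CPM in control roots. Quinone reductases were even, with 9 of 19 above 0 and a median of -0.01 over all 19, and the 69 further redox and detoxification transcripts had 52 above 0 with a median of 0.15 (0.10 in the 46 named elsewhere). A selenium-binding protein just outside the threshold, pp_201633, had 15.6, 23.5 and 19.4 CPM in ammonium roots and 4.60, 12.5 and 10.8 CPM in control roots.

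Among cell wall lists, 9 of 10 further EXORDIUM transcripts were above 0, with a median of 0.83, and all 9 were named only in the sorted table, while the 1 named elsewhere was at -0.26. The form pp_129084 had 21.1, 33.9 and 31.9 CPM in ammonium roots and 9.97, 14.1 and 18.6 CPM in control roots (adjusted p = 0.156 from limma). Further xyloglucan enzymes lay on both sides of 0, with 9 of 22 above 0 and a median of -0.51, all of them named only in the sorted table. Limma listed 9 of them as higher and 13 as lower at an unadjusted p under 0.05, as the selection by p favours. The xyloglucan endotransglucosylase/hydrolase 32 match pp_188815 had 16.9, 24.3 and 29.1 CPM in ammonium roots and 59.8, 57.3 and 29.4 CPM in control roots, and pp_179642 had 33.1, 22.4 and 24.4 CPM in ammonium roots and 47.6, 35.6 and 39.97 CPM in control roots, both lower under ammonium in log2 fold change without passing limma. Gibberellin-regulated snakin proteins had 8 of 12 above 0 (median 0.58), all 12 named only in the sorted table, and class III peroxidases 36 of 58 (median 0.11, and 0.07 in the 31 named elsewhere). The EXORDIUM, xyloglucan and snakin medians thus rest on a list that mostly lacks unchanged transcripts, and do not describe whole families.

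For nitrogen, 47 of 54 further transcripts of amino nitrogen metabolism were above 0, with a median of 0.14 in the 37 named elsewhere. The exact test called 10 of the 54 higher, where it called 0.242% of all transcripts higher. Of these 10, 7 were among the 17 named only in the sorted table. The 54 include 13 transcripts that had been excluded from the members by name. A cytosolic glutamine synthetase GS1b form excluded by name had 25.7, 12.2 and 20.1 CPM in ammonium roots and 6.14, 6.34 and 7.73 CPM in control roots (adjusted p = 0.0727 from limma). In the methyl cycle, which restores S-adenosylmethionine after methylation, 19 of 25 transcripts were above 0 with a median of 0.08, but the S-adenosylmethionine synthetase pp_92107 had 827, 849 and 931 CPM in ammonium roots and 1198, 1085 and 1173 CPM in control roots (log2 fold change -0.41, adjusted p = 0.157 from limma). Adenosylhomocysteinase (pp_57408), which removes the by-product of methylation, had 195, 179 and 169.9 CPM in ammonium roots and 147, 147 and 114 CPM in control roots, and an adenosine kinase (pp_205546) had 23.4, 32.4 and 28.5 CPM in ammonium roots and 16.1, 20.3 and 17.9 CPM in control roots. None of the 25 passed limma or the exact test. At an unadjusted p under 0.05 limma listed 6 as higher and 5 as lower, beside 4.1% of all transcripts as higher. Among the 20 named elsewhere it listed 3 as higher and 3 as lower. The phosphocholine list held 4 transcripts by description, all of them members.

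Defense proteins had 45 of 53 above 0 (median 0.51, and 0.16 in the 24 named elsewhere), phenylpropanoid and flavonoid enzymes 42 of 63 (median 0.11, and 0.07 in the 46 named elsewhere), and cysteine proteinases 9 of 15 (median 0.23, and 0.13 in the 10 named elsewhere). A leucoanthocyanidin dioxygenase (pp_133430) had 8.77, 7.68 and 7.31 CPM in ammonium roots and 19.9, 11.3 and 18.3 CPM in control roots, and a vignain-like proteinase (pp_68991) had 7.14, 7.46 and 6.77 CPM in ammonium roots and 17.6, 13.7 and 10.4 CPM in control roots, while the cysteine proteinase pp_61971, a form of the members' unigene, had 25.98, 41.4 and 39.8 CPM in ammonium roots and 19.9, 22.7 and 17.7 CPM in control roots. Cytochrome P450s outside the members lay below 0 in 21 of 29, with a median of -0.53, but of -0.12 in the 8 named elsewhere and -0.67 in the 21 named only in the sorted table. The 2 forms of CYP77F31 (pp_179545 and pp_179546) with identical reads had 5.52, 2.99 and 3.03 CPM in ammonium roots and 11.5, 7.36 and 14.4 CPM in control roots (adjusted p = 0.13 from limma). Ribosomal proteins had 157 of 206 above 0 with a median of 0.06 in the 156 named elsewhere, and 40S S26-like (pp_244270) had 3.57, 4.05 and 3.39 CPM in ammonium roots and 0.767, 1.23 and 0.442 CPM in control roots, whereas the ubiquitin-L40 fusion pp_215447 had 88.97, 76.98 and 84.1 CPM in ammonium roots and 142, 119 and 129 CPM in control roots. Metallothioneins had 9 of 12 above 0 (median 0.11, and 0.03 in the 8 named elsewhere), aquaporins 10 of 16 (median 0.03), histones 15 of 44 (median -0.06) and photosynthetic transcripts 2 of 9 (median -0.08).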

How the data were processed

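Poly(A) RNA of 6 root samples (3 ammonium, 3 control) was sequenced directly on nanopores. As the study's methods and the submitters' processing notes describe, the authors called bases with Guppy, kept reads of quality above 9, mapped these with minimap2 to a root transcriptome of the species, and used edgeR to make CPM values and to drop transcripts that did not reach 2 CPM in 2 libraries. For these tools no version, and for the counting no program, is given in the sources used here. The authors deposited CPM values for 46658 transcripts, in 1 column per library, scaled with their normalization factors, so levels in the text are already normalised. Names came from description columns of the supplementary tables, and no value of those tables was used.

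All values (100% in every library, tolerance 1e-06) were whole multiples of what 1 read is worth, so reads could be recovered (1270378 to 5416076 per library, 1 read being worth 0.178 to 0.767 CPM). Reads are alignments, and near-identical forms can share them. Counts of reads by themselves cover counting error only.

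Members were found by the rule in the opening of the report, read as the first 150 ranks with the excluded names then removed. Members, role groups and lists were chosen with earlier results of these data known. The fit across all transcripts was limma on log2(CPM + 1) (lmFit, eBayes with a trend, Benjamini-Hochberg over 46658 transcripts, threshold 0.05). The study used edgeR without naming the test, so alternatives on the recovered reads were edgeR's exact and quasi-likelihood tests and DESeq2, which called 378, 114 and 97 transcripts, where limma called 18. Other alternatives changed the pseudocount (0.25 or 4 CPM), kept only transcripts of 10 CPM or more in 3 libraries, or used newly computed TMM factors, quantile normalization, no trend, the replicate number as a block, each library left out, and other settings of the rule (its constant and its range of means). Leaving out C1 and N1 together was added after depths and principal components had been seen. The software was limma 3.58.1, DESeq2 1.42.0 and edgeR 4.0.16 under R 4.3.3. The limma script was tested on simulated data. No library repeated another, since chi-square per degree of freedom within groups was 1.33 to 2.96.

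Named transcripts were the first 30 members, up to 6 members of each list, up to 3 transcripts of each list outside the members with the smallest limma p, ranks 146 to 155, and forms of unigenes with at least 3 members. Some members and forms beyond these were named after their values were seen. Some transcripts that the rule names are given only within a range or a count. No sequence of a member is shown.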

Additional observations from a re-analysis of the deposited data

How the results depend on the processing

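The median log2 fold change of the members, 0.60, stayed between 0.52 and 0.63 under every alternative fit. The members were chosen on these same values, so their choice favours a steady median. Where the rule was applied without N1 and C1, N2 and C2, or N3 and C3, the medians in the libraries left out were 0.04, 0.24 and 0.25. The counts of calls did not keep so steady under the alternative fits. Limma called 18 transcripts of the table, 0 members and 4 transcripts of the lists outside them. With a pseudocount of 4 CPM it called 1 member (24 transcripts) and after quantile normalization 2 (25 transcripts). Without a trend it called 0 transcripts (3658 at an unadjusted p under 0.05), 0 members and 0 list transcripts. In the same order the counts were 114, 12 and 19 by edgeR's quasi-likelihood test, 378, 43 and 58 by its exact test, 97, 11 and 23 by DESeq2, and 352, 16 and 56 by limma without C1 and N1, a pair chosen after the data were seen. With single libraries left out, limma called 0 (without C2, where 4726 had an unadjusted p under 0.05) to 71 (without N1) transcripts, 0 to 5 members and 0 to 19 list transcripts.

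With the replicate number as a block, limma called 49 transcripts, 2 members and 8 list transcripts. Whether same-numbered libraries come from the same repeat of the experiment is not given in the sources used here. The deviations of same-numbered libraries from their group means correlated at -0.00237, 0.0561 and -0.00855. Over all transcripts such correlations cannot decide whether the libraries are paired.

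Of the 125 members, the rule chose 65 again with a constant of 4 CPM, 106 with 0.25 CPM, 67 with ammonium means of 20 to 200 CPM, 105 with 5 to 800 CPM, 34 to 83 with single libraries left out, and 24 without C1 and N1. Over 114 transcripts followed singly, 57 of them members, 1 sign turned. By their choice members could not change sign when a library was left out. The log2 fold change of pp_66604, an aquaporin TIP1-1 outside the members, was 0.16, but -0.0063 without C3, and 0.29 without C1 and N1. Of 1927 pairs of a transcript and an alternative, 52 shifted a member by at least 0.14 in log2 fold change. Outside the members, 18 pairs lost a call and 70 gained it. The other alternatives left each count within 1.5 times. Depth limits C1 most, where 3 reads are 2.30 CPM.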
